A study of Mus musculus with 18 samples.

Results

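The change in the response of mouse knee cartilage to joint destabilisation between 2 and 8 weeks after surgery was measured as the difference of 2 differences, DMM minus contralateral at 8 weeks less DMM minus contralateral at 2 weeks. It rested on 12 of the 18 arrays of the series, 3 from each of 4 groups chosen by the array titles, and was computed for all 22999 deposited probes. Destabilisation of the medial meniscus (DMM) is surgery on a ligament that anchors the meniscus, after which the loaded cartilage degenerates as it does in osteoarthritis. The operated right knees gave DMM cartilage and the unoperated left knees of the same mice gave contralateral cartilage, so all groups came from operated C57Bl6/J male mice and no sham-operated or naive knee was measured. The groups used here were DMM cartilage 8 weeks after surgery, from mice aged 18 weeks, contralateral cartilage of the same mice, DMM cartilage 2 weeks after surgery, from mice aged 12 weeks, and the contralateral cartilage of those mice. The 4-week arrays, from mice aged 14 weeks, served to estimate the spread and to choose probes without looking at either end of the interval. Each array held cartilage of the medial tibial plateau pooled from 8 knees, so n = 3 pools per group, and differences between single mice were not measured. The RNA was amplified before it was hybridised to Illumina bead arrays. Values are log2 intensities, on which a difference of 1 is a 2-fold difference, and levels of different probes were not compared with each other.

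Articular cartilage is built by 1 cell type, the chondrocyte, which surrounds itself with collagen and proteoglycan and turns this matrix over slowly. After an injury chondrocytes raise matrix-degrading enzymes, chief among them the matrix metalloproteinases and the ADAMTS proteinases, and at the same time matrix proteins of repair tissue such as tenascins, periostin and minor collagens. Cells of synovium, muscle, fat and marrow lie close to the dissected surface and can carry RNA into such samples. In pooled tissue, fewer cells of a type and less RNA per cell cannot be told apart.

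The DMM effect was smaller at 8 weeks than at 2 weeks for most probes that responded, but no single probe passed the test of the change itself. With limma and Benjamini-Hochberg adjustment at 0.05, 0 of 22999 probes (0%) were called for the change, the smallest adjusted p was 0.102, and 2419 (10.5%) had an unadjusted p under 0.05. The median standard error of the change was 0.24, against a median residual SD of 0.21 between arrays of a group. With the brightest probe of each of 11499 genes, 702 (6.1%) had a lower effect at 8 weeks at unadjusted p under 0.05 and 547 (4.76%) a higher one, and the median change over all genes was -0.005. These shares are the background for the counts by gene list below. In the same fit, at 8 weeks 52 genes (0.452%) were up-regulated in DMM cartilage and 16 (0.139%) down-regulated, whereas at 2 weeks 397 (3.45%) were up-regulated and 322 (2.8%) down-regulated. The counts of both weeks were not tested against each other. The 8-week calls drew on the spread of all 18 arrays, and the 6 arrays of week 8 fitted alone gave 0 called probes, with a smallest adjusted p of 0.0715.

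Probes chosen by their 2-week call must on average look weaker later, and those chosen by their 8-week call must look weaker earlier. Of the 1281 probes called at 2 weeks, taken in the direction of that call, the median effect was 0.29 at 8 weeks and 0.77 at 2 weeks. Of the 112 called at 8 weeks it was 0.89 at 8 weeks and 0.47 at 2 weeks. The probes called at 4 weeks in the 6 arrays of that week alone were chosen without the values of either end. Week 4 is closer to week 2 than to week 8, and effects that arose after week 4 are missed by this choice. There were 147 of them (0.639% of 22999), 79 up-regulated and 68 down-regulated. In the direction of the 4-week call the median effects of these probes were 1.06 (2 weeks), 1.10 (4 weeks) and 0.58 (8 weeks), so that 54.2% of the 2-week median was kept. Taken in that direction, the effect was smaller at 8 than at 2 weeks in 113 of the 147 and larger in 34. By direction, 61 of the 79 up-regulated and 52 of the 68 down-regulated probes had the smaller effect at 8 weeks. At 8 weeks 132 of the 147 still pointed the same way as at 4 weeks. At least 1/2 of the 2-week effect was kept by 74 probes, less than 1/2 with the same sign by 53, 15 pointed against the 4-week call at 8 weeks, and the remaining 5 did so at 2 weeks only. The share kept was 32.0% without 8-week contralateral replicate 2, an array high in muscle markers, and between 47.2% and 71.4% without each of the other 11 arrays in turn. Without the genes of the contractile and other muscle lists it was 57.8% over 112 probes. All 79 up-regulated probes remained, with 54.2% kept. Only 33 of the 68 down-regulated probes remained, with 74.1% kept, against 59.3% over the 68.

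**Figure D1:**
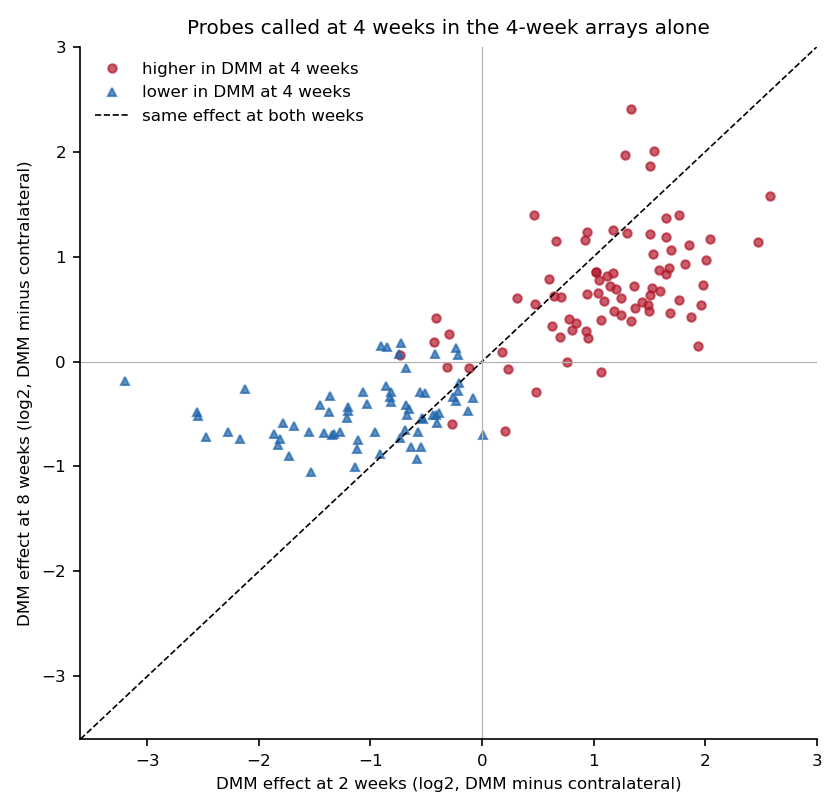
Each point is 1 of the 147 probes called at 4 weeks, with its DMM effect at 2 weeks on the horizontal axis and at 8 weeks on the vertical axis, both as log2 differences, DMM minus contralateral. Most points lie between the dashed line of equal effects and the horizontal line at 0, and 113 of the 147 had the smaller effect at 8 weeks.

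The mean level of the 79 up-regulated probes shows the same on single arrays. On the 8-week DMM arrays it was 8.32, 8.10 and 7.69, and on the 8-week contralateral arrays 7.43, 7.15 and 7.46. On the 2-week DMM arrays it was 8.46, 8.52 and 8.48, and on the 2-week contralateral arrays 7.67, 7.04 and 7.44. DMM and contralateral arrays did not overlap at either week, and the 8-week DMM arrays were all below the 2-week DMM arrays while the contralateral arrays of both weeks overlapped. The 68 down-regulated probes averaged 7.19, 6.88 and 6.89 on the 8-week DMM arrays and 7.06, 8.38 and 6.98 on the 8-week contralateral arrays. They averaged 6.22, 6.47 and 6.27 on the 2-week DMM arrays and 7.15, 7.63 and 7.29 on the 2-week contralateral arrays. Here the groups overlapped at 8 weeks, where 1 contralateral array stood 1 unit or more above the other 2, and did not overlap at 2 weeks.

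The matrix metalloproteinases, the enzymes that cleave collagen and other matrix proteins, had the largest loss of effect among the proteinase lists. Over the 12 measured members the median effect was 0.14 at 8 weeks and 0.75 at 2 weeks, and the median change was -0.87, between -0.99 and -0.61 when each of the 12 arrays was left out. A lower effect at 8 weeks at unadjusted p under 0.05 was found for 7 of the 12 members (Mmp13, Mmp14, Mmp11, Mmp16, Mmp9, Mmp2 and Mmp3) and a higher one for 0, against 6.1% and 4.76% of all genes. At 2 weeks 7 of the 12 were called up-regulated, and at 8 weeks 0 were. The summed intensity of the list ranged from 2985 to 4310 on the 8-week DMM arrays and from 3250 to 4128 on the 8-week contralateral arrays, which overlapped, and from 7446 to 8412 on the 2-week DMM arrays and from 2906 to 4796 on the 2-week contralateral arrays, which did not.

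Mmp14, the membrane-bound enzyme that activates the Mmp2 proenzyme, had log2 intensities of 8.49, 8.46 and 8.08 in 8-week DMM cartilage and of 8.19, 8.22 and 8.03 in 8-week contralateral cartilage. It had 9.84, 10.11 and 9.86 in 2-week DMM cartilage and 9.12, 7.64 and 8.11 in 2-week contralateral cartilage. The groups were apart at 2 weeks and overlapped at 8 weeks, and the change was -1.45 (SE 0.39, unadjusted p = 0.0016, adjusted p = 0.26). Mmp13, the main collagenase of cartilage, read 10.74, 10.85 and 10.47 in 8-week DMM cartilage and 10.82, 10.76 and 11.06 in 8-week contralateral cartilage. It read 11.85, 11.71 and 11.95 in 2-week DMM cartilage and 11.44, 10.75 and 11.16 in 2-week contralateral cartilage. All 3 of its 8-week DMM arrays were below all 3 of its 2-week DMM arrays, and its change was -0.91 (SE 0.25, adjusted p = 0.26), and -1.25 and -0.06 on its other probes. Mmp3, or stromelysin, which degrades proteoglycans and activates other proenzymes, behaved in part differently. It read 8.64, 8.75 and 7.75 in 8-week DMM cartilage and 7.25, 7.02 and 7.37 in 8-week contralateral cartilage, and 9.79, 9.42 and 9.63 in 2-week DMM cartilage and 7.76, 7.16 and 7.80 in 2-week contralateral cartilage. Its DMM arrays stayed above the contralateral arrays at both weeks, with an effect of 1.17 at 8 weeks (adjusted p = 0.063) and 2.04 at 2 weeks (adjusted p = 0.0005). The change of Mmp3 was -0.88 (SE 0.38), and -0.56 without 8-week DMM replicate 3. Mmp2, a gelatinase, had an effect of 0.97 at 8 weeks and 2.01 at 2 weeks, and its change of -1.04 was -0.59 without 2-week contralateral replicate 2. Mmp9, a gelatinase also made by osteoclasts and neutrophils, had the widest spread of the list, with 8.29, 8.04 and 6.37 in 8-week DMM cartilage and 8.35, 7.73 and 9.31 in 8-week contralateral cartilage, and its change of -1.95 had an SE of 0.68. Its low 8-week DMM array was also the lowest 8-week array in the neutrophil markers. Mmp9 is itself 1 of those 19 markers, so the 2 readings are not independent. The part of those markers in its change was not tested.

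The promoters of Mmp3 and Mmp13 are shown because both are textbook targets of AP-1, a transcription factor of stress and cytokine signalling that binds TGANTCA. The RefSeq windows of GRCm38.p6 run from 250 bases before to 50 bases after the gene start, and 8 of the 12 measured metalloproteinases had a window. The motif reads the same on both strands and is in capitals in the sequences, chr9:7445572-7445871 for Mmp3 and chr9:7272264-7272563 for Mmp13, both on the plus strand.
Mmp3: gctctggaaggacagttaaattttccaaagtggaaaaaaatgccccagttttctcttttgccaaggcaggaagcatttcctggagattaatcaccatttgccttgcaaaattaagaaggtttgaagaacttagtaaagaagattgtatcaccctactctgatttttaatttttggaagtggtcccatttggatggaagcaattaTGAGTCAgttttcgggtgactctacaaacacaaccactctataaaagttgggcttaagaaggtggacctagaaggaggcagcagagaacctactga
Mmp13: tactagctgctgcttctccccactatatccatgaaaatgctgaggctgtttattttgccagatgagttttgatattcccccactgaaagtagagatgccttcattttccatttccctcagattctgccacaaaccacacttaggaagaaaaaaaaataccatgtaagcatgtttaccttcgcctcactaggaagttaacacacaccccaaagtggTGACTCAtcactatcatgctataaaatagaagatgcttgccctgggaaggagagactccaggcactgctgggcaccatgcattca
The motif began 46 bases before the start of Mmp3 and 35 bases before that of Mmp13, and was in 2 of the 8 metalloproteinases with a window, against 6.76% of the 9261 measured genes with one. It was also in 4 of the 5 alpha-1-antitrypsin paralogs, whose effects ran the other way. A match in letters describes the sequence only.

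Genes of fibroblasts and of fibrous matrix also had smaller effects at 8 weeks. Over the 18 measured markers of fibroblasts and synovium the median effect was 0.52 at 8 weeks and 0.92 at 2 weeks. The median change was -0.33, and -0.21 without 2-week contralateral replicate 2 and -0.52 without 2-week contralateral replicate 1. A lower effect at unadjusted p under 0.05 was found for 5 of the 18 (S100a4, Thy1, Postn, Mfap5 and Cthrc1) and a higher one for 0. In the fit of all arrays 1 of the 18 was called up-regulated at 8 weeks, against 12 at 2 weeks. Cthrc1, a secreted protein of activated fibroblasts, read 5.95, 6.19 and 5.84 in 8-week DMM cartilage and 5.74, 6.45 and 5.36 in 8-week contralateral cartilage. At 2 weeks it read 7.78, 8.56 and 7.97 in DMM cartilage and 7.15, 5.25 and 6.10 in contralateral cartilage. The groups were apart at 2 weeks and overlapped at 8 weeks, and the change was -1.79 (SE 0.49, adjusted p = 0.269). Its 8-week readings were all below the arrays' median intensity of 6.56. On its other probe the change was -0.95 (SE 0.24, adjusted p = 0.234), and the DMM arrays were all above the contralateral arrays at both weeks. Mfap5, a microfibril protein, had an effect of -0.00 at 8 weeks and 1.48 at 2 weeks, a change of -1.48 (SE 0.33, adjusted p = 0.15). Postn, which encodes periostin, had an effect of 0.54 at 8 weeks and 1.97 at 2 weeks, with 8-week DMM arrays at 8.07, 7.29 and 6.54, the widest of its groups but for the 2-week contralateral arrays at 8.25, 6.37 and 7.25. These genes mark fibroblasts, whose marker level on each array is given below, and its part in their changes was not tested.

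Among the collagens the median effect of 30 measured genes was 0.30 at 8 weeks and 0.58 at 2 weeks, with 7 lower and 1 higher at unadjusted p under 0.05. The median change of -0.25 was -0.07 without 2-week contralateral replicate 2, -0.15 without 2-week DMM replicate 1, -0.16 without 8-week DMM replicate 2 and -0.15 without 8-week DMM replicate 3. The lower ones were Col16a1 and Col9a1, which associate with fibril surfaces, Col4a1, Col4a2 and Col18a1 of basement membranes, and Col5a2 and Col5a3, which regulate fibril width. Col16a1 read 8.67, 8.68 and 8.45 in 8-week DMM cartilage and 7.96, 8.26 and 8.42 in 8-week contralateral cartilage, and 9.86, 9.68 and 9.55 in 2-week DMM cartilage and 8.60, 7.75 and 8.73 in 2-week contralateral cartilage. Its arrays were apart at both weeks but by less at 8 weeks, a change of -0.95 (SE 0.29, adjusted p = 0.284). The higher one was Col10a1, the collagen of hypertrophic chondrocytes, with an effect of 0.34 at 8 weeks and -0.40 at 2 weeks, neither of them called, and a change of 0.74 (SE 0.28, adjusted p = 0.38). Tnc, which encodes tenascin C of healing connective tissue, had an effect of 0.67 at 8 weeks (adjusted p = 0.27) and 1.60 at 2 weeks (adjusted p = 0.0026). Its change of -0.93 was -0.49 without 2-week contralateral replicate 2, and all 6 of its other probes also had a negative change. Kera, a corneal and tendon proteoglycan, had an effect of 1.14 at 8 weeks and 2.48 at 2 weeks, a change of -1.34 (SE 0.46, adjusted p = 0.341), and its DMM arrays were above the contralateral arrays at both weeks.

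Other lists held members in both directions or few members past the unadjusted threshold. Of 12 aggrecanases and related ADAMTS enzymes, 4 were lower (Adamts1, Adamts4, Adamts12 and Adamts15) and 2 higher (Adamts17 and Adamts18), and Adamts1 and Adamts17 each had a further probe with a change of opposite sign. Adamts4, an aggrecanase, had an effect of 0.26 at 8 weeks and 1.48 at 2 weeks. The median change of the list, -0.20, was -0.32 without 2-week contralateral replicate 3 and -0.10 without 8-week contralateral replicate 1. Of 17 lysosomal proteases 3 were lower, among them Ctsk, the collagen-degrading cathepsin K, with 7.84, 7.73 and 6.97 in 8-week DMM cartilage and 7.57, 6.83 and 7.68 in 8-week contralateral cartilage, and 8.69, 8.56 and 8.88 in 2-week DMM cartilage and 7.50, 6.70 and 7.38 in 2-week contralateral cartilage. Its change was -1.37 (SE 0.37, adjusted p = 0.267), and the groups were apart at 2 weeks and overlapped at 8 weeks. Of 21 genes of the IGF and FGF pathways 4 were lower and 2 higher (Fgf2 and Fgfr3). Among the lower ones Igfbp4, which binds insulin-like growth factors, had an effect of 0.47 at 8 weeks and 1.69 at 2 weeks, a change of -1.22, which was -0.49 on its other probe. Of 19 genes of the TGF-beta pathway 4 were lower and 0 higher. One of them, Ltbp1, which holds latent TGF-beta in the matrix, had a change of -0.98 on its brightest probe but of -0.16, -0.04 and 0.14 on its other 3 probes. Panx3, a channel protein of prehypertrophic chondrocytes and osteoblasts, read 6.92, 6.41 and 6.51 in 8-week DMM cartilage and 6.38, 7.07 and 7.01 in 8-week contralateral cartilage. It read 8.67, 8.00 and 8.24 in 2-week DMM cartilage and 6.57, 6.17 and 6.86 in 2-week contralateral cartilage. Its change of -1.97 (SE 0.37, 95% interval -2.75 to -1.19, adjusted p = 0.102) was the largest of the 12 genes with the smallest p for a lower effect. Sdc1, a cell surface heparan sulphate proteoglycan, kept its arrays apart at both weeks, with an effect of 0.45 at 8 weeks and 1.24 at 2 weeks.

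**Figure D2:**
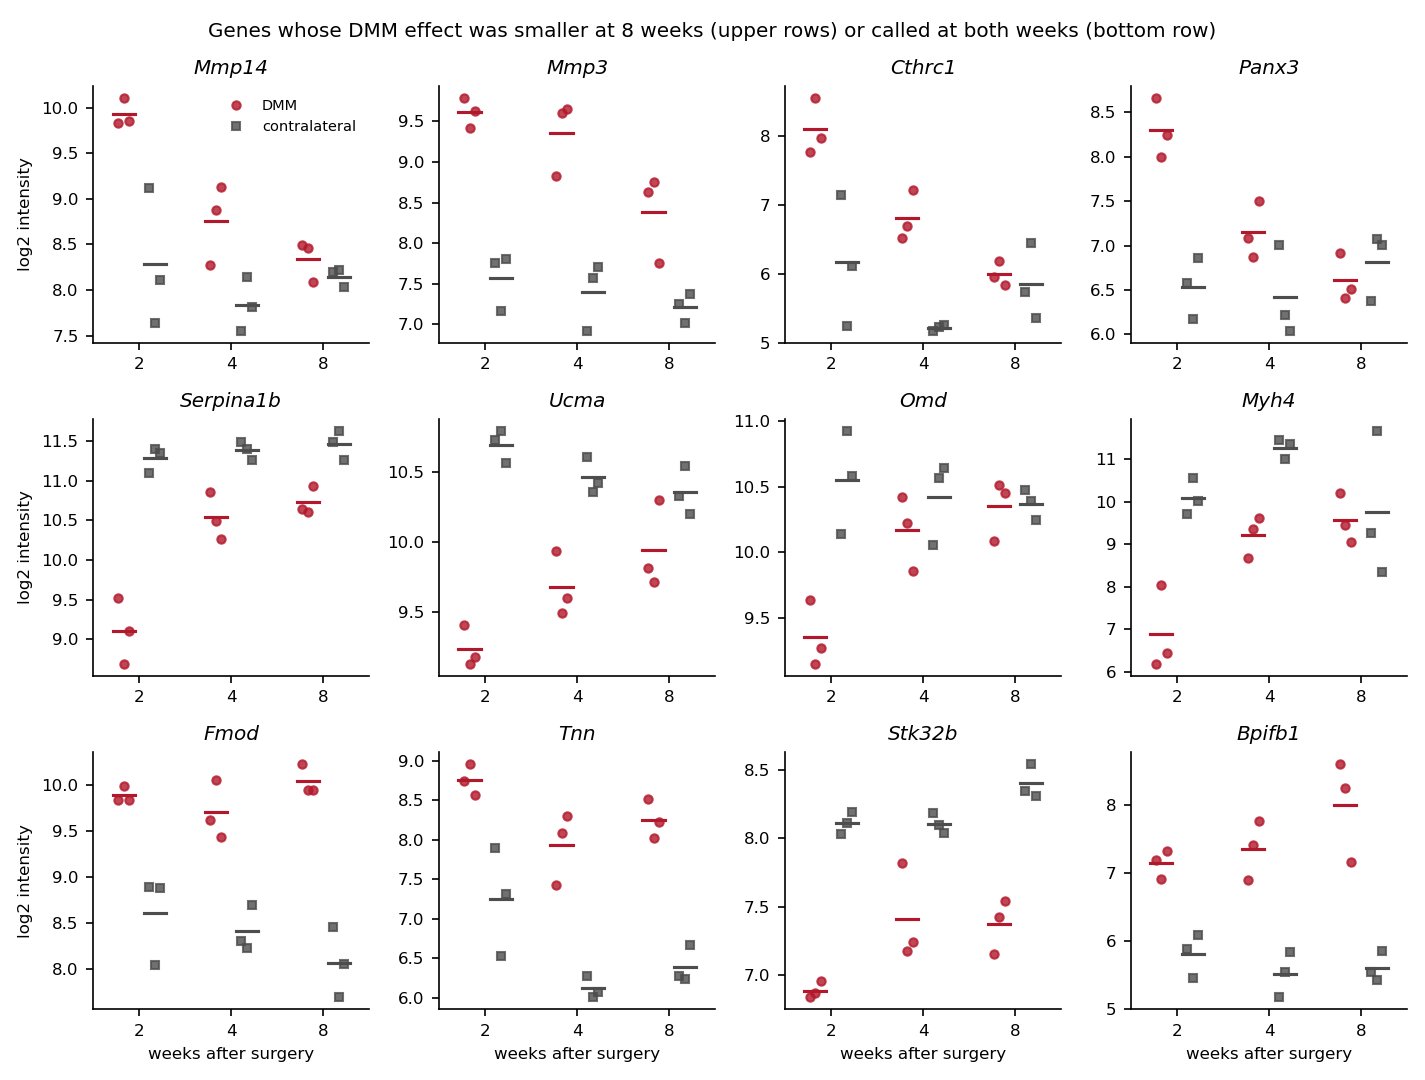
Log2 intensity of 12 genes on each array at 2, 4 and 8 weeks after surgery, with DMM arrays as red circles, contralateral arrays as grey squares and group means (n = 3) as bars. In the upper row the 2-week DMM arrays lie highest, in the middle row they lie lowest, and in the bottom row DMM and contralateral arrays stay apart at both 2 and 8 weeks.

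Lists with a negative median effect at 2 weeks and one smaller in size at 8 weeks included the alpha-1-antitrypsin paralogs, skeletal muscle and adipocyte markers and, with smaller values, the cartilage matrix. The 17 adipocyte markers had a median effect of -0.42 at 8 weeks and -0.92 at 2 weeks, but the median change of 0.45 was -0.11 without 2-week contralateral replicate 2, and 0.17 to 0.93 without each of the other arrays. Alpha-1-antitrypsin is a serine protease inhibitor best known from liver. All 5 measured paralogs were called down-regulated at 2 weeks and 0 at 8 weeks, with a median effect of -0.61 at 8 weeks and -1.98 at 2 weeks and a median change of 1.27, between 1.11 and 1.38 without each array. Serpina1b read 10.64, 10.60 and 10.93 in 8-week DMM cartilage and 11.48, 11.63 and 11.27 in 8-week contralateral cartilage. It read 9.52, 8.69 and 9.11 in 2-week DMM cartilage and 11.10, 11.40 and 11.34 in 2-week contralateral cartilage. The contralateral arrays of both weeks overlapped, the DMM arrays of both weeks did not, and the change was 1.44 (SE 0.27, 95% interval 0.87 to 2.01, adjusted p = 0.102). The change reached 1.65 with an adjusted p of 0.0447 without 2-week DMM replicate 1, as did that of Serpina1a at 1.64 and that of Cpxm1, a secreted carboxypeptidase-like protein, at -1.20. These genes are near-identical copies, so their probes may read each other's RNA and are not independent of each other.

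In the cartilage matrix list 13 of 15 measured genes had a positive change and 4 of them an unadjusted p under 0.05 (Ucma, Cytl1, Vit and Fibin), with a median effect of -0.16 at 8 weeks and -0.44 at 2 weeks. At 8 weeks 0 of the 15 were called, whereas at 2 weeks 6 were called down-regulated and 2 up-regulated. This list does not hold Col2a1 or Col9a1, which are among the chondrocyte markers. Of those 19 markers 4 were higher at unadjusted p under 0.05 (Cytl1, Chad, Ucma and Sox5) and 1 was lower (Col9a1). At 8 weeks 1 of the 19, Col2a1, was called up-regulated. Ucma, a small matrix protein of cartilage that binds calcium, read 9.82, 9.71 and 10.30 in 8-week DMM cartilage and 10.32, 10.54 and 10.20 in 8-week contralateral cartilage, and 9.41, 9.13 and 9.18 in 2-week DMM cartilage and 10.73, 10.79 and 10.56 in 2-week contralateral cartilage. One 8-week DMM array was within the contralateral range, and the change was 1.04 (SE 0.23, adjusted p = 0.15). Cytl1, a secreted protein of chondrocytes, had an effect of -0.56 at 8 weeks and -1.45 at 2 weeks, with DMM arrays below contralateral arrays at both weeks. Acan, the core protein of aggrecan, had 0.03 at 8 weeks and -0.33 at 2 weeks, a change of 0.35 (SE 0.20) with an unadjusted p of 0.099. Omd, a keratan sulphate proteoglycan of mineralised tissue, read 10.09, 10.51 and 10.45 in 8-week DMM cartilage and 10.48, 10.39 and 10.24 in 8-week contralateral cartilage. It read 9.64, 9.15 and 9.27 in 2-week DMM cartilage and 10.14, 10.93 and 10.58 in 2-week contralateral cartilage, so the groups were apart at 2 weeks and overlapped at 8 weeks, and its change was 1.18 (SE 0.30, adjusted p = 0.223). Tnfrsf11b, the osteoprotegerin that blocks osteoclast formation, had an effect of -0.09 at 8 weeks and -0.98 at 2 weeks, in a list of chemokines and cytokines that went both ways. Wif1, a secreted Wnt inhibitor, had 0.07 at 8 weeks and -0.72 at 2 weeks, in a Wnt pathway list of 33 genes with 3 lower and 2 higher and a median change of 0.007. Of 27 genes of hypoxia and glycolysis 4 were higher and 0 lower, with a median effect of -0.03 at 8 weeks and -0.34 at 2 weeks. The median change of that list, 0.28, was 0.42 without 2-week DMM replicate 1.

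Some skeletal muscle genes had large changes, with values that depended on single arrays. Over 28 measured contractile genes the median effect was -0.53 at 8 weeks and -1.17 at 2 weeks, and 7 had a higher effect at unadjusted p under 0.05 and 0 a lower one. Myh4, a fast myosin heavy chain, read 10.20, 9.46 and 9.05 in 8-week DMM cartilage and 9.26, 11.66 and 8.34 in 8-week contralateral cartilage. It read 6.18, 8.04 and 6.45 in 2-week DMM cartilage and 9.70, 10.54 and 10.01 in 2-week contralateral cartilage. The 8-week groups overlapped, with contralateral replicate 2 above every other array of the 2 weeks, and the change was 3.01 (SE 0.84, adjusted p = 0.275). The median change of the contractile list, 0.69, was 1.33 without that array, 0.34 without 8-week contralateral replicate 3, 0.39 without 8-week contralateral replicate 1 and 0.42 without 2-week contralateral replicate 2. For 26 other measured skeletal muscle markers the median change was 0.13, with 4 higher and 0 lower at unadjusted p under 0.05. It ran from -0.20 to 0.50 when single arrays were left out, and its sign turned in 3 of these settings. Leaving out 8-week contralateral replicate 2 together with 8-week DMM replicate 3, an alternative chosen after seeing the data, called 5 probes for the change, all of muscle genes (Myh4, Tnnc2, Pvalb, Tnnt3 and Pgam2), with changes from 2.87 to 4.23. These proteins mark skeletal muscle, and the part of adhering muscle in these changes was not tested.

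Genes called at both weeks were fewer. In the fit of all arrays 30 genes were called at both 8 and 2 weeks, 21 up-regulated and 9 down-regulated and 0 in opposite directions, which is 44.1% of the 68 genes called at 8 weeks and 4.17% of the 719 called at 2 weeks. The effect was larger at 8 weeks in 15 of the 30 and smaller in 15. Only 5 of them kept both calls in all 21 alternative settings of the joint fit: Fmod, Tnn, Col15a1, Socs2 and Stk32b. Fmod encodes fibromodulin, a leucine-rich proteoglycan that binds collagen fibrils. It read 10.23, 9.95 and 9.95 in 8-week DMM cartilage and 8.45, 7.69 and 8.05 in 8-week contralateral cartilage, and 9.84, 9.99 and 9.84 in 2-week DMM cartilage and 8.90, 8.04 and 8.88 in 2-week contralateral cartilage. All DMM arrays were above all contralateral arrays at both weeks, with an effect of 1.97 at 8 weeks (adjusted p = 0.00074) and 1.28 at 2 weeks (adjusted p = 0.003). The change was 0.69 (SE 0.32, unadjusted p = 0.046, adjusted p = 0.467), made up of 0.15 within DMM cartilage and -0.54 within contralateral cartilage. Tnn, which encodes tenascin N of bone and fibrous tissue, read 8.52, 8.02 and 8.22 in 8-week DMM cartilage and 6.27, 6.24 and 6.67 in 8-week contralateral cartilage. It read 8.75, 8.96 and 8.57 in 2-week DMM cartilage and 7.90, 6.53 and 7.32 in 2-week contralateral cartilage. Its effect was 1.86 at 8 weeks and 1.51 at 2 weeks, and the change of 0.35 had a 95% interval of -0.45 to 1.15. It was 0.02 without 2-week contralateral replicate 1 and 0.71 without 2-week contralateral replicate 2, and -0.36 on its other probe, so it has no settled sign.

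Col15a1, a basement membrane collagen, had an effect of 1.11 at 8 weeks and 0.96 at 2 weeks, and the 95% interval of its change ran from -0.35 to 0.64. The change of 0.14 was 0.01 without 2-week contralateral replicate 1 and 0.29 without 2-week contralateral replicate 2. Socs2, an inhibitor of growth hormone signalling, had 1.19 at 8 weeks and 1.04 at 2 weeks, with an interval of -0.35 to 0.65, and the sign of its change turned without 2-week contralateral replicate 1, to -0.04. Stk32b, a serine/threonine kinase, read 7.16, 7.43 and 7.54 in 8-week DMM cartilage and 8.35, 8.54 and 8.31 in 8-week contralateral cartilage, against 6.84, 6.87 and 6.96 in 2-week DMM cartilage and 8.03, 8.11 and 8.19 in 2-week contralateral cartilage. Its arrays were far apart at both weeks, and the interval of its change was -0.26 to 0.66. These intervals are about as wide as the effects of many genes, so a moderate change in either direction was not detectable with 3 arrays per group. Other genes called at both weeks were Lum, another collagen-binding proteoglycan, with 1.37 at 8 weeks and 1.65 at 2 weeks, Dio2, which activates thyroid hormone, with 1.18 at 8 weeks and 1.05 at 2 weeks, and the secreted BMP and Wnt antagonists Nbl1 and Dkk3. Down-regulated at both weeks were Bcl2, which blocks cell death, Prkg1, a cyclic GMP-dependent kinase, Nampt, an enzyme of NAD synthesis, Enho, Myocd, Tbc1d4 and Sesn3. Of the 21 alternative settings, the 8-week call was lost in 17 for Nampt, 16 for Bcl2, 15 for Enho and 14 for Nbl1. It was lost in 13 for Dkk3, 12 for Lum, 10 each for Prkg1 and Grem1, 6 for Dio2 and 4 for Myocd. For Tbc1d4 it was lost in 13 of 20 settings. Other probes of these genes did not always follow. For Nampt the other probe had -0.03 at 8 weeks and -1.19 at 2 weeks, a change of 1.15 (95% interval 0.38 to 1.93). For Dkk3 one further probe had 0.70 at 8 weeks and 1.77 at 2 weeks, a change of -1.07 (95% interval -1.74 to -0.40), and the other had 0.21 at 8 weeks and 0.36 at 2 weeks. Further probes of Bcl2, Prkg1, Enho, Tbc1d4, Sesn3, Lum, Socs2 and Tnn were not called at 8 weeks, whereas those of Fmod, Bpifb1 and Nbl1 and 1 of 3 of Myocd were. Grem1, a BMP antagonist that marks articular cartilage against hypertrophy, was called at both weeks and had a smaller effect at the later one. It read 7.12, 7.58 and 8.29 in 8-week DMM cartilage and 8.90, 9.55 and 8.77 in 8-week contralateral cartilage, and 8.11, 7.71 and 7.57 in 2-week DMM cartilage and 10.52, 10.17 and 10.46 in 2-week contralateral cartilage. Its DMM arrays overlapped between the weeks and its contralateral arrays did not, so the change of 1.18 (SE 0.40, adjusted p = 0.338) was made up of -0.13 within DMM cartilage and -1.32 within contralateral cartilage.

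Some genes had a larger effect at 8 weeks by estimate, but none of their changes passed adjustment. Of 38 genes called at 8 weeks and not at 2 weeks, 31 were up-regulated and 7 down-regulated, 29 had the same sign at 2 weeks, and 22 had an unadjusted p under 0.05 for the change, a share raised by their choice on the 8-week arrays. The changes of single genes named from this choice are raised in the same way. Ptgs2, the inducible cyclooxygenase of prostaglandin synthesis, read 7.65, 7.77 and 7.91 in 8-week DMM cartilage and 6.62, 5.89 and 6.63 in 8-week contralateral cartilage. It read 7.50, 7.13 and 7.83 in 2-week DMM cartilage and 6.90, 7.15 and 7.03 in 2-week contralateral cartilage. The groups overlapped at 2 weeks and were apart at 4 and 8 weeks, the successive effects were 0.46 (2 weeks), 0.87 (4 weeks) and 1.40 (8 weeks), and the change was 0.93 (SE 0.29, adjusted p = 0.292). That change was made up of 0.29 within DMM cartilage and -0.64 within contralateral cartilage. Bpifb1, a secreted lipid-binding protein of airway epithelium, was called at both weeks, with successive effects of 1.33 (2 weeks), 1.84 (4 weeks) and 2.41 (8 weeks), and its contralateral arrays were all below the arrays' median intensity of 6.56. The change of 1.07 (SE 0.42, adjusted p = 0.397) was 0.24 on its other probe. Mcm3, a subunit of the replicative helicase, had an effect of 1.09 at 8 weeks and -0.02 at 2 weeks, whereas Mcm2 of the same helicase had -0.52 at 8 weeks and 0.11 at 2 weeks. Mcm3 averaged 6.22, below the arrays' median, and its change of 1.11 had an adjusted p of 0.178. Among 36 cell cycle genes on the arrays 5 were lower and 3 higher at unadjusted p under 0.05. The lower ones included Mcm2, and the higher ones were Mcm3, Mcm6 of the same helicase, and Kif22. Wnt7b, a Wnt ligand, was also called at 8 weeks and not at 2 weeks, with 1.20 at 8 weeks and 0.41 at 2 weeks. Its change was 0.79 (SE 0.37, unadjusted p = 0.046, adjusted p = 0.465), and 0.48 without 2-week contralateral replicate 3. Inhba, the activin subunit, and Col2a1, the main collagen of cartilage, had such calls too, but an unadjusted p for the change over 0.05. Inhba had 0.97 at 8 weeks and 0.49 at 2 weeks, a change of 0.48 (SE 0.30, unadjusted p = 0.13). Col2a1 had 0.65 at 8 weeks and 0.45 at 2 weeks, a change of 0.20 (SE 0.20, unadjusted p = 0.32). Its DMM arrays were above the contralateral arrays at both weeks. Sesn3, a stress-induced regulator of growth signalling, was down-regulated at both weeks, by -0.93 at 8 weeks and -0.49 at 2 weeks, and its 2-week call was lost in 14 of 21 settings.

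**Figure D3:**
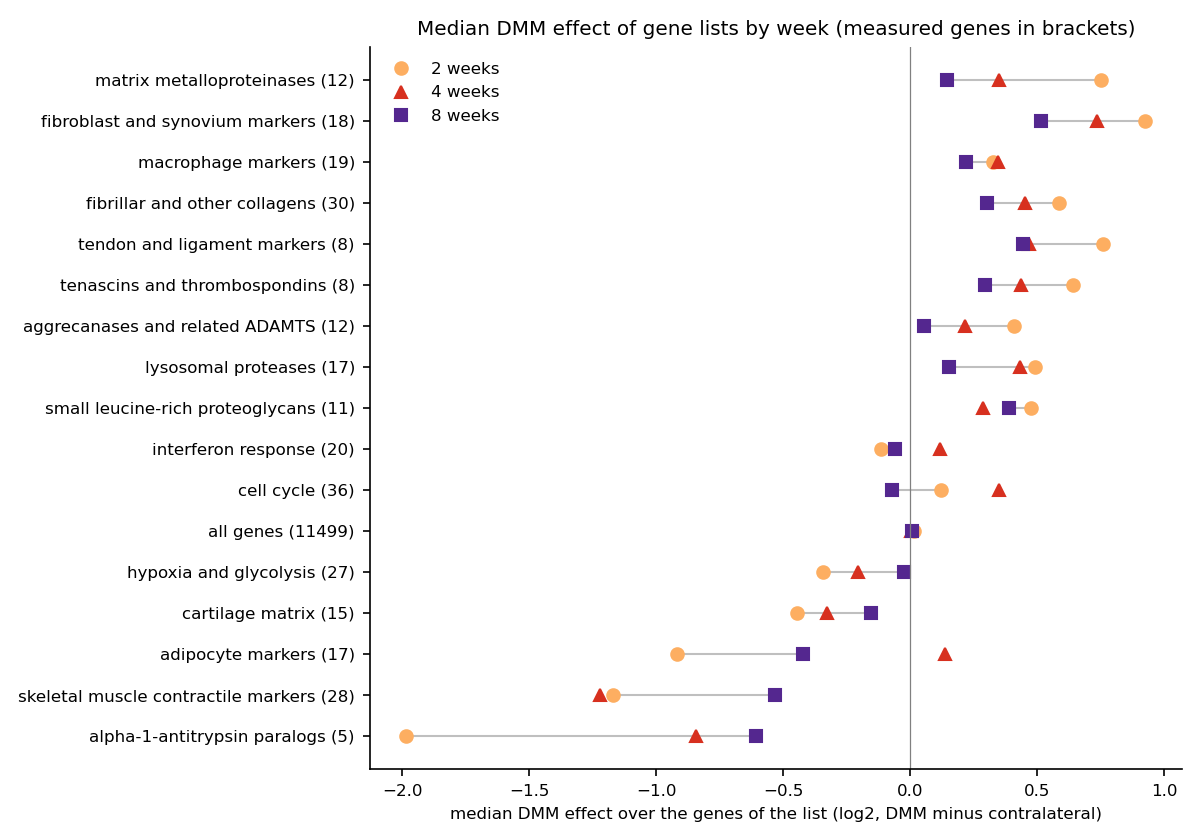
Median DMM effect (log2, DMM minus contralateral) over the measured genes of 16 lists and of all genes at 2, 4 and 8 weeks. The metalloproteinases lie at 0.75 at 2 weeks and 0.14 at 8 weeks, the alpha-1-antitrypsin paralogs at -1.98 at 2 weeks and -0.61 at 8 weeks, and the median of all genes lies near 0 at each week.

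The small leucine-rich proteoglycans, which bind collagen fibrils, differed among themselves over the 11 measured genes. Fmod had the larger effect at 8 weeks. Aspn, or asporin, had an effect of 1.13 at 8 weeks and 1.35 at 2 weeks, with a 95% interval of the change of -1.09 to 0.64, and Bgn, or biglycan, 0.45 at 8 weeks and 0.48 at 2 weeks, with an interval of -0.40 to 0.36. Kera had a smaller positive effect at 8 weeks, and Omd and Chad, a chondrocyte adhesion protein, had smaller negative ones. Dcn, the decorin of most connective tissues, had 0.16 at 8 weeks and 0.36 at 2 weeks. At unadjusted p under 0.05, 1 of the 11 was lower and 3 were higher, and the median change of -0.09 turned its sign when any 1 of 3 arrays was left out, so it gives no direction for the family.

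Immune lists had few members past the unadjusted threshold. Among 19 macrophage markers 18 had a negative change, against 5832 of all 11499 genes, and 2 were lower at unadjusted p under 0.05 (Adgre1 and Fcgr3). Their median change was -0.30, between -0.42 and -0.25 when single arrays were left out. The median effect was 0.22 at 8 weeks and 0.32 at 2 weeks, with 0 called up-regulated at 8 weeks and 5 at 2 weeks. For 20 interferon response genes and 10 genes of MHC class II presentation 0 passed in either direction. Of 26 chemokines and cytokines 3 were lower and 3 higher, among them Cxcl12, a chemokine of stromal cells, with -0.60 at 8 weeks and 0.93 at 2 weeks, a change of -1.52, against -0.64, -0.55 and -0.32 on its other probes. Of 56 cytosolic ribosomal protein genes 7 were lower and 0 higher, with a median change of -0.11, which was -0.05 without 2-week contralateral replicate 1, -0.07 without 8-week contralateral replicate 3 or 8-week DMM replicate 2 and -0.16 without 8-week contralateral replicate 1.

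The 24 genes with the smallest p for the change, 12 in each direction, included few of the genes above. The 12 with a lower effect were Bcl7a, Eva1b, Panx3, Szrd1, Cldn2, Kcne4, Foxp3, Ackr1, Sdc1, Dync2li1, Znhit1 and Brix1. The 12 with a higher effect were Rbmx2, Serpina1b, Serpina1a, Amy1, Mcc, Ptprf, Ubxn10, Mical3, Serpina1d, Ucma, Sbsn and Mark4. Their adjusted p-values ran from 0.102 upwards, and in 19 of the 24 the effects of the 2 weeks had opposite signs. Bcl7a, a subunit of chromatin remodelling complexes, read 5.82, 5.97 and 5.69 in 8-week DMM cartilage and 6.99, 7.82 and 7.26 in 8-week contralateral cartilage, and 6.72, 6.18 and 6.36 in 2-week DMM cartilage and 6.16, 6.07 and 6.41 in 2-week contralateral cartilage. The 8-week contralateral arrays stood above all other arrays of both weeks, and the change was -1.74 (SE 0.29, 95% interval -2.35 to -1.12, adjusted p = 0.102). Amy1, an amylase, read 7.80, 8.12 and 8.08 in 8-week DMM cartilage and 7.72, 6.99 and 7.44 in 8-week contralateral cartilage, and 6.51, 6.58 and 6.96 in 2-week DMM cartilage and 8.18, 9.02 and 7.51 in 2-week contralateral cartilage. Its groups were apart in opposite directions, and the change was 2.17 (SE 0.43, adjusted p = 0.102), but 0.36 on its other probe. Amy1 is also in the list of other skeletal muscle markers given above. Foxp3 and Brix1 each had a further probe with a change of opposite sign, and 5 of the 24 genes averaged below the arrays' median intensity of 6.56, where probes carry little signal.

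**Figure D4:**
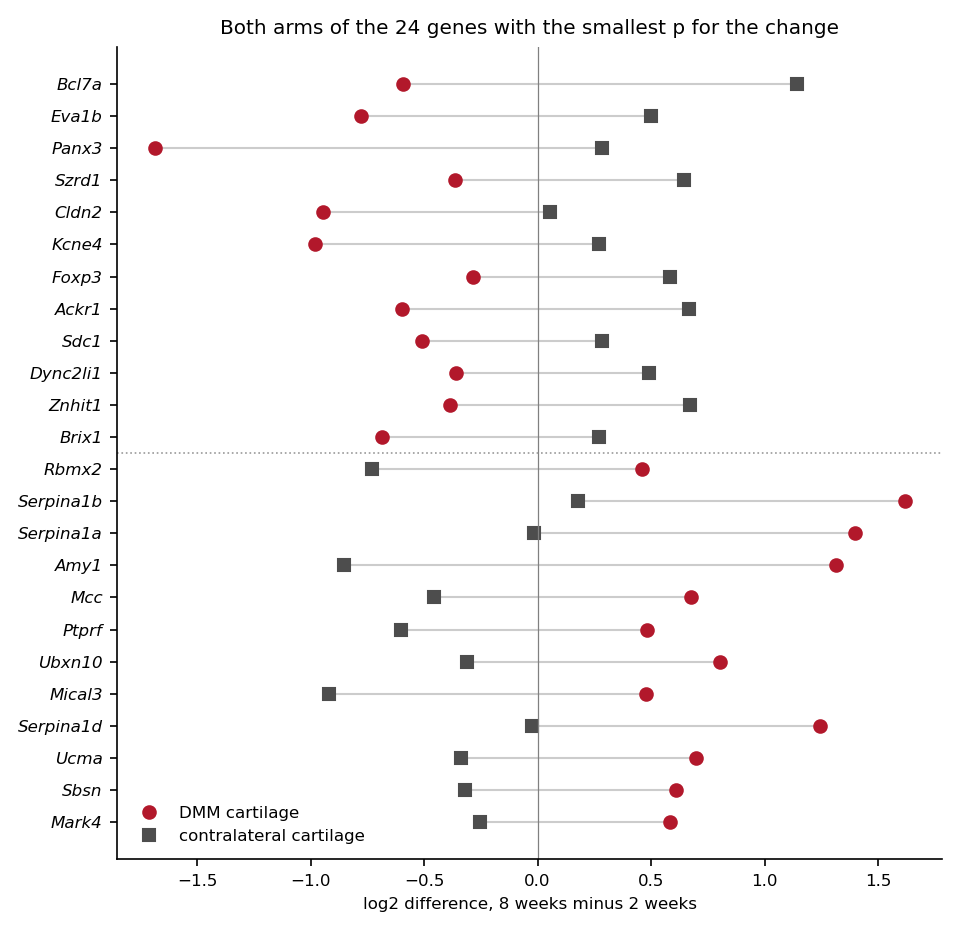
Log2 difference of 8 weeks minus 2 weeks within DMM cartilage (red circles) and within contralateral cartilage (grey squares) for the 24 genes with the smallest p for the change, lower effects above the dotted line and higher effects below it. The gap between the symbols of a row is the change, and in 23 of the 24 rows the symbols lie on opposite sides of 0.

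Within DMM cartilage 205 probes (0.891%) differed between 8 and 2 weeks, 68 higher and 137 lower at 8 weeks. Within contralateral cartilage 0 probes (0%) were called by limma, where 2699 had an unadjusted p under 0.05 and the adjusted p was nowhere below 0.0647, but 27 were called without 8-week contralateral replicate 1, 14 without 8-week contralateral replicate 2, 3 without 2-week contralateral replicate 2 and 2 without 2-week contralateral replicate 1. The DMM count was 26 without 2-week DMM replicate 2, 72 without 2-week DMM replicate 3, 118 without 2-week DMM replicate 1 and 75 without 8-week DMM replicate 3. For the probes called at 4 weeks, in the direction of that call, the median difference of 8 minus 2 weeks was -0.51 within DMM cartilage and -0.15 within contralateral cartilage. For the 112 probes called at 8 weeks, in the direction of their call, it was 0.18 within DMM cartilage and -0.29 within contralateral cartilage. Those probes were chosen on the 8-week arrays, which enter both differences. Among the 24 genes above, DMM cartilage moved more in 15 and contralateral cartilage in 9. The metalloproteinases had a median difference of -0.98 within DMM cartilage and -0.11 within contralateral cartilage, and the alpha-1-antitrypsin paralogs 1.40 within DMM cartilage and 0.18 within contralateral cartilage. Age and time after surgery ran together, so within an arm they cannot be told apart.

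Markers of other tissues differed between arrays of a group. The 19 chondrocyte markers averaged 9.44 to 9.54 on the 8-week DMM arrays and 9.54 to 9.58 on the 8-week contralateral arrays, and 9.32 to 9.68 on the 2-week DMM arrays and 9.66 to 9.83 on the 2-week contralateral arrays, and 2 of the 19 averaged below the arrays' median intensity. The 18 fibroblast and synovium markers averaged 9.45 to 9.66 on the 8-week DMM arrays and 8.91 to 9.20 on the 8-week contralateral arrays, and 10.09 to 10.25 on the 2-week DMM arrays and 8.64 to 9.39 on the 2-week contralateral arrays. The 28 contractile genes averaged 6.75 to 7.35 on the 8-week DMM arrays and 6.94 to 8.38 on the 8-week contralateral arrays, and 6.19 to 6.53 on the 2-week DMM arrays and 7.26 to 7.79 on the 2-week contralateral arrays. The 17 adipocyte markers averaged 6.43 to 7.11 on the 8-week DMM arrays and 6.70 to 7.64 on the 8-week contralateral arrays, and 6.47 to 6.64 on the 2-week DMM arrays and 6.80 to 8.64 on the 2-week contralateral arrays. The highest of these was 2-week contralateral replicate 2, the array whose omission moved several values above. The 19 neutrophil and precursor markers averaged 6.29 to 8.07 on the 8-week DMM arrays and 6.42 to 8.23 on the 8-week contralateral arrays, and 6.10 to 6.74 on the 2-week DMM arrays and 6.58 to 6.89 on the 2-week contralateral arrays. The part of these markers in the changes above was not tested.

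**Figure D5:**
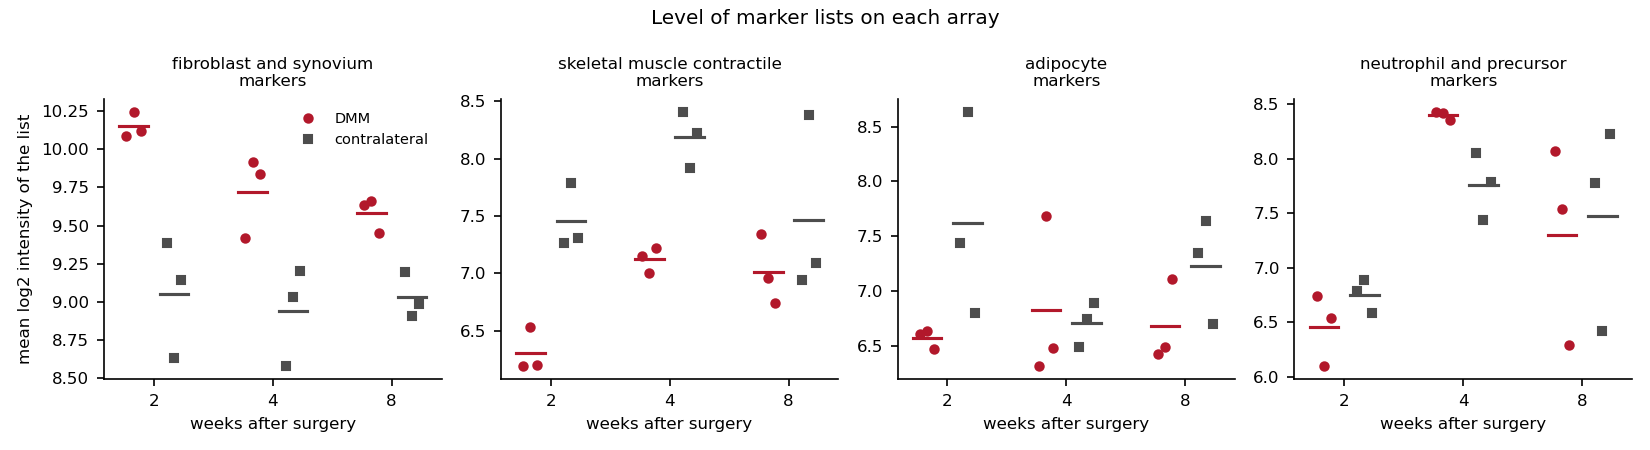
Mean log2 intensity of 4 marker lists on each array at 2, 4 and 8 weeks after surgery, with DMM arrays as red circles, contralateral arrays as grey squares and group means (n = 3) as bars. At 8 weeks 1 contralateral array stands at 8.38 in the muscle list and 1 array of each group lies near the 2-week level in the neutrophil list, at 6.29 in DMM and 6.42 in contralateral cartilage.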

How the data were processed

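Cartilage RNA of 18 pools was amplified and read on Illumina bead arrays. The authors selected probes and quantile-normalised all arrays together with lumi 2.8.0 in R 2.15.0, and the deposited values are log2 intensities of 22999 probes. Quantile normalisation gives every array 1 distribution, so shifts shared by most genes are removed. An unnormalised table with 36 columns was not used because its column names match no array label, so detection could not be applied. No 2 arrays were duplicates (0 found). Gene names came from the platform annotation, with 1 gene for 18998 probes, and a gene was represented by its probe with the highest mean over 18 arrays.

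Probes were fitted with limma 3.58.1 in R 4.3.3, with 6 group means over 18 arrays, moderated variances and Benjamini-Hochberg adjustment over all probes at 0.05. The 4-week effect was fitted on its 6 arrays alone. Fits were checked on simulated arrays, and figures were drawn with matplotlib 3.10.9. By the study's methods both knees of each mouse were used, so DMM and contralateral pools share mice, but which ones is not stated and the fit is unpaired. Named genes are the 12 with the smallest p for a change in each direction, up to 10 in each direction called at both 8 and 2 weeks (by the smaller effect) and at 4 weeks (by size), up to 2 per list and direction with an unadjusted p under 0.05, and genes the study followed. Other names were chosen after their values were seen. Gene lists (43, from textbook knowledge) and genes were chosen with earlier results of these data known. The number of arrays limits the precision. Alternatives were the 12 arrays alone, trended robust variances, array weights, a replicate block, other normalisations, brighter probes, gene means and leaving out arrays.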

Additional observations from a re-analysis of the deposited data

Results flagged for a closer look

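In 12 of the named genes the 3 DMM arrays all lay on one side of the 3 contralateral arrays at 2 weeks and all on the other side at 8 weeks. The difference was tested by the change itself, and none of the 12 passed after adjustment. Among all 11499 genes, 45 (0.391%) had DMM arrays all above at 2 weeks and all below at 8 weeks, and 37 (0.322%) the reverse. The genes were among those with the smallest p for the change, so this separation is no independent evidence. DMM arrays were below at 8 weeks and above at 2 weeks for Eva1b (change -1.28), Kcne4 (-1.26), Znhit1 (-1.06), Szrd1 (-1.01), Cldn2 (-0.999), Brix1 (-0.96) and Foxp3 (-0.87). They were above at 8 weeks and below at 2 weeks for Amy1 (change 2.17), Ubxn10 (1.12), Ptprf (1.09), Sbsn (0.93) and Mark4 (0.83).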

How the results depend on the processing

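The count of probes called for the change stayed at 0 in all 8 other planned fits of all or 12 arrays, ranged from 0 to 3 when arrays were left out singly (3 without 2-week DMM replicate 1) and was 5 without both 8-week arrays low in neutrophil markers. At 2 weeks the 1281 calls became 2011 with array weights and 742 with gene means, and 505 to 1419 when arrays were left out (505 without 2-week contralateral replicate 2, 551 without 2-week DMM replicate 3, 621 without 2-week DMM replicate 2). At 8 weeks the 112 calls became 20 in the 12 arrays alone, also after quantile normalisation of those 12, 171 with trended robust variances, 18 with array weights, 215 among brighter probes, 69 with gene means and 0 in the pairwise fit of 6 arrays, and 45 to 190 when arrays were left out (190 without 2-week contralateral replicate 2, 171 without 8-week contralateral replicate 1, 67 without 8-week contralateral replicate 2, 49, 55 and 45 without 2-week DMM replicates 1, 2 and 3, and 70 without 8-week DMM replicate 1). With the replicate block there were 39 calls at 8 weeks, 1131 at 2 weeks, 341 at 4 weeks and 0 for the change. After each group's mean was subtracted from its arrays, same-numbered DMM and contralateral arrays correlated between -0.10 and 0.13. Of the 9 pairs 1 was over 0.1, so the numbers were not taken to pair the arrays. At 4 weeks the 147 calls became 36 in the fit of all arrays and 316 with trended robust variances, and 50 to 192 when arrays were left out (72 without 4-week contralateral replicate 1, 55 and 50 without 4-week DMM replicates 2 and 3). Within DMM cartilage 205 calls became 88 in the 12 arrays alone and 26 to 187 when arrays were left out. Within contralateral cartilage 0 calls became 8 with trended robust variances, 0 to 27 when arrays were left out (27 without replicate 1 and 14 without replicate 2 of week 8, 2 without replicate 1 and 3 without replicate 2 of week 2) and 77 without both 8-week arrays low in neutrophil markers. The share kept was 51.8% over the 500 probes with the smallest p at 4 weeks, 43.8% without both 8-week arrays and 32.0% to 71.4% when arrays were left out. The cause of these differences was not tested. Of the 110 named genes with an unadjusted p under 0.05 for the change, 0 turned its sign under the alternatives run, and of the other 24, 11 did (among them Lum, Dkk3, Dio2, Socs2 and Tnn).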
